A study of Homo sapiens with 20 samples.

Results

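The 10 genes described here encode the muscle acetylcholine receptor and the machinery that gathers it at the neuromuscular synapse. They are the 5 receptor subunits CHRNA1, CHRNB1, CHRND, CHRNG and CHRNE, and 5 genes of the agrin pathway, AGRN, LRP4, MUSK, DOK7 and RAPSN. They were chosen by gene symbol, and all 10 were measured, by 1 probe set each, among 17687 genes on the arrays. The study measured RNA in 2 rhabdomyosarcoma cell lines after KDM4 histone demethylases were depleted or inhibited. Rh30 cells carried a short hairpin RNA against KDM4B or a control hairpin, with 2 arrays for each, and RNA was taken at 72 h. Further Rh30 cells had 72 h of an siRNA against KDM4C or of a control siRNA, again on 2 arrays for each. Rh30 and Rh41 cells were also given DMSO, the solvent, or 200 nM QC6352, a KDM4 inhibitor, for 48 h (3 arrays in each of these 4 groups). Both lines come from alveolar rhabdomyosarcoma, a tumour of cells committed to the skeletal muscle lineage, and carry the PAX3-FOXO1 fusion gene. They are tumour lines without a nerve, so they are a model of expression in muscle-like cells and not of a synapse.

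The muscle receptor is a ring of alpha, beta, delta and gamma or epsilon subunits. The gamma subunit is used in fetal and denervated muscle and is replaced by epsilon at the innervated adult endplate. At that endplate the nerve releases agrin, which binds LRP4; LRP4 activates the kinase MUSK, DOK7 binds and activates MUSK from inside the cell, and rapsyn (RAPSN) clusters the receptors. In muscle cells the receptor subunit and MUSK promoters carry E-boxes, the CANNTG sites bound by the myogenic factors MYOD1 and myogenin (MYOG), and some also carry an N-box, CCGGAA, bound by ETS factors.

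Of the 10 genes, 6 have promoter entries in RefSeq (GRCh38.p14), which give 250 bases before each start site and 50 from it on. CHRNG, AGRN, LRP4 and RAPSN have none. The 4 windows below are shown because their genes include those that changed with QC6352 in Rh41 (CHRND, CHRNE, MUSK) and a subunit whose difference did not pass the test in any treatment (CHRNA1). Capitals mark every CANNTG and every CCGGAA on either strand. The windows are CHRNA1 at chr2:174764423-174764722 (minus strand), CHRND at chr2:232525910-232526209 (plus strand), CHRNE at chr17:4903049-4903348 (minus strand) and MUSK at chr9:110668541-110668840 (plus strand).
CHRNA1: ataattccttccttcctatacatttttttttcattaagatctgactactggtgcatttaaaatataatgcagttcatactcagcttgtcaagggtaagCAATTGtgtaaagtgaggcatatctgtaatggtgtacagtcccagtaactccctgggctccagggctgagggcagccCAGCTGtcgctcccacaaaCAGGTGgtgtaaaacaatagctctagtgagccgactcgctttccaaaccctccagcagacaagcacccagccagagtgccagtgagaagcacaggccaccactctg
CHRND: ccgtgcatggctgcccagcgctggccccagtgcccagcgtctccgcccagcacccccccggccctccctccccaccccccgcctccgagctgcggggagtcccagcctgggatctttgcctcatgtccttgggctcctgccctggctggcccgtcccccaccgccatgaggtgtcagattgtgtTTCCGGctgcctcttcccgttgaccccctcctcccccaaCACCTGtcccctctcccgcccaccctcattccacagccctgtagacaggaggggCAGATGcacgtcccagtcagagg
CHRNE: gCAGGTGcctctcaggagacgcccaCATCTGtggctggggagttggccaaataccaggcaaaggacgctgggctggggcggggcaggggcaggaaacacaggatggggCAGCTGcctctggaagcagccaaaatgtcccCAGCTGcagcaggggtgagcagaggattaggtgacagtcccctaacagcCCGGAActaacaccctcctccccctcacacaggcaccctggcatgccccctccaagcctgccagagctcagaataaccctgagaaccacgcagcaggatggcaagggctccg
MUSK: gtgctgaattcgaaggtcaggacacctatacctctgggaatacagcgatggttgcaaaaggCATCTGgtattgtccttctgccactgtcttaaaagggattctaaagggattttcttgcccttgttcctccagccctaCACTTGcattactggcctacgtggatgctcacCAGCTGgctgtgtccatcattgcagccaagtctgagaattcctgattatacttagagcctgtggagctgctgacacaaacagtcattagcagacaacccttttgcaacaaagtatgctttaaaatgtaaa
The fixed letters of CANNTG read alike on both strands. CAGCTG is a form of it, and so is CACCTG, which the other strand reads as CAGGTG, so their matches overlap. The CHRNA1 window holds 3 CANNTG, CHRND 2, CHRNE 4 and MUSK 3. Of these, CHRNE has 2 CAGCTG, and CHRNA1 and MUSK have 1 each. CACCTG occurs 1 time in CHRNA1, CHRND and CHRNE. CCGGAA occurs 1 time in CHRND, at position -66 from the start site, and 1 time in CHRNE, at position -62. Among the windows not shown, that of CHRNB1, not called with QC6352 in Rh41, holds 4 CANNTG, and those of DOK7 hold 1 and 0. Such letters are common: 68.7% of the 35116 RefSeq windows of 300 bases hold a CANNTG, 17.9% a CAGCTG, 20.6% a CACCTG and 17.2% a CCGGAA. A match is a stretch of letters and was not measured as a binding site.

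Signals are log2 values per probe set as deposited, so a difference of 1 is a 2-fold difference. Differences were tested with limma over all 20 arrays in 1 fit of 8 group means, and a gene is called changed at a Benjamini-Hochberg adjusted p below 0.05 over the 17687 genes. Errors of differences are standard errors. The labels call the arrays biological replicates but do not say what was repeated, so the p-values measure the spread between these arrays. Array medians were 6.72 to 6.75 for the siRNA arrays, 6.95 to 6.99 for the other Rh30 arrays and 7.22 to 7.25 for Rh41. On each array 23 control probe sets gave the background, whose median was 3.64 to 4.01. The other members were over 1 log2 unit above that median on all 20 arrays, while CHRNE was so only on the 6 Rh41 arrays. Background depends on the GC content of a probe, and the brightest background probe set (7.09 to 8.05) lay above all CHRNE signals and some CHRNG, LRP4 and MUSK signals. It also lay above the AGRN signal of Rh41 DMSO replicate 3. Fewer cells of a type and less RNA per cell cannot be told apart in these bulk samples.

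The labels of 10 Rh30 arrays, the 4 siRNA and the 6 DMSO or QC6352 arrays, give different groups in the title and in the submitters' sample name. Titles are used throughout. The hairpin and Rh41 arrays have labels that do not conflict. For the Rh30 QC6352, KDM4C and DMSO comparisons, values that the sample names would yield are given beside part of the main ones. A value without one is not shown to be free of this conflict. Muscle lineage markers were present in both lines, with 7 of 7 measured in Rh30 and 6 of 7 in Rh41 over background on all arrays of each group. The same margin was passed by 5 to 6 of 6 motor neuron, 3 to 4 of 6 epithelium and 2 to 5 of 6 fibroblast markers. It was also passed by 3 of 6 endothelium, 1 to 3 of 5 blood and 1 to 2 of 3 Schwann cell markers. Passing it therefore does not tell cell types apart. The summed log2 signal was 13.40 to 14.30 for the muscle list and at most 10.58 for any other list. Depletion was read first: KDM4B lay at 6.74 and 7.30 in the control hairpin arrays and at 6.01 and 6.15 with the KDM4B hairpin, a fall of 0.94 ± 0.23 (adjusted p = 0.0120). KDM4C lay at 6.48 and 6.54 in the siRNA controls and at 6.25 and 6.32 with the KDM4C siRNA, a difference of -0.23 ± 0.19 that did not pass the test (adjusted p = 0.651). All these KDM4B and KDM4C signals lay below the brightest background probe set of their array.

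Among the receptor subunits, CHRNG, the fetal gamma subunit, changed in 3 of the 4 treatments, and in opposite directions in the 2 lines. It lay at 7.47 and 7.59 with the control hairpin and at 6.48 and 5.99 with the KDM4B hairpin. In Rh30 it lay at 7.61, 7.64 and 7.84 with DMSO and at 6.45, 6.69 and 6.65 with QC6352. All treated arrays of both experiments were below all of their controls. On every array of both experiments, treated or control, the CHRNG signal lay below the brightest background probe set of that array. The fall was 1.29 ± 0.15 with the hairpin (2.45-fold, adjusted p = 1.55e-05) and 1.10 ± 0.12 with QC6352 (2.14-fold, adjusted p = 9.15e-07). In Rh41 CHRNG instead lay at 7.70, 7.89 and 7.63 with DMSO and at 8.14, 8.26 and 8.06 with QC6352, a rise of 0.41 ± 0.12 (1.33-fold, adjusted p = 0.0232). The response to QC6352 differed between the lines by 1.51 ± 0.18 (adjusted p = 6.50e-06). With the siRNA for KDM4C it lay at 8.01 and 7.90 against 7.91 and 8.15, and the difference was -0.08 ± 0.15 (-0.47 ± 0.28 by sample name).

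**Figure D1:**
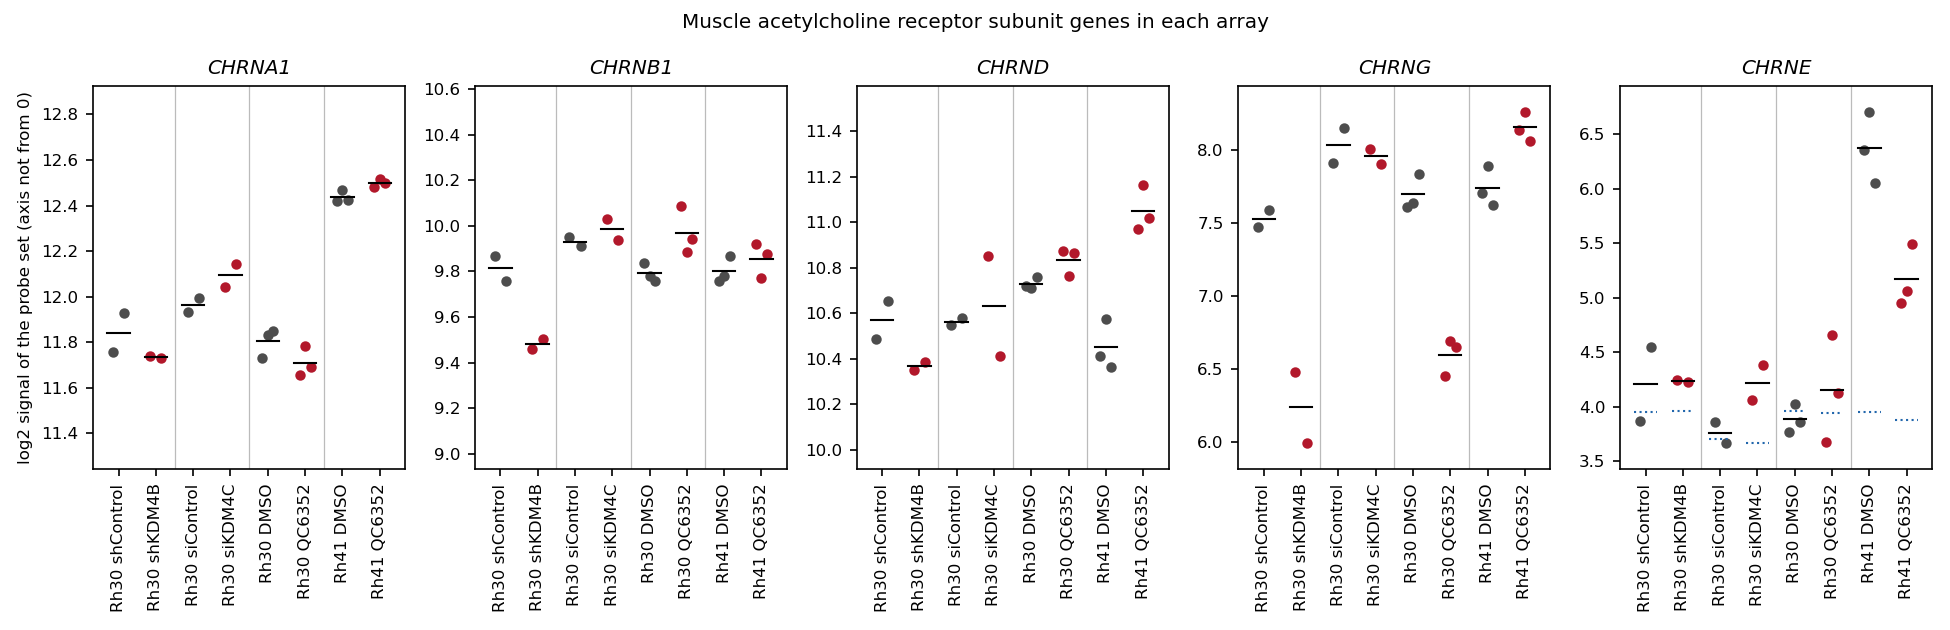
Deposited log2 signal (vertical axis) of each receptor subunit in every array, by group along the horizontal axis. Points are arrays, bars group means, red marks a knockdown or QC6352 and grey its control; in the CHRNE panel the blue dotted lines mark the median of the background probe sets. CHRNG lies lowest in the KDM4B hairpin and Rh30 QC6352 arrays, at 5.99 to 6.69.

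The CHRNG result with the hairpin was called in all 15 alternative analyses, and with QC6352 in Rh30 in 15 of 16. The exception was grouping by sample name, under which the Rh30 QC6352 difference was -0.30 ± 0.23 (adjusted p = 0.484) and the difference between lines 0.72 ± 0.33 (adjusted p = 0.235). The rise in Rh41 was called in 11 of 17 and was lost without Rh41 DMSO replicate 1 or 3, or without QC6352 replicate 1 or 2. The group means of CHRNG were lowest in the KDM4B hairpin arrays, 6.24, and in Rh30 with QC6352, 6.60. These 2 groups overlapped each other and neither overlapped another group. The genes whose 8 group means were nearest to its own, by root mean square distance after centring, were ATRX (0.156), RAP1A (0.178) and LRRFIP1 (0.196), against a spread of 0.654 for CHRNG itself.

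CHRND, the delta subunit gene, is the neighbour of CHRNG on chromosome 2, with no protein-coding gene between them in the RefSeq table. In Rh30 it lay at 10.72, 10.71 and 10.76 with DMSO and at 10.87, 10.77 and 10.86 with QC6352, a difference of 0.10 ± 0.11 (adjusted p = 0.503; -0.04 by sample name). With the hairpins it lay at 10.49 and 10.65 in controls and at 10.35 and 10.39 with KDM4B depleted, -0.20 ± 0.13. Neither difference passed the test. Within the same array, CHRNG minus CHRND went from -3.04 ± 0.0994 (SD, n = 3) to -4.24 ± 0.175 with QC6352 in Rh30, a change of -1.20, and by -1.09 with the KDM4B hairpin. The change in that difference was -0.18 in Rh41 and -0.14 with the KDM4C siRNA. In Rh41 CHRND rose with CHRNG: it lay at 10.41, 10.57 and 10.36 with DMSO and at 10.97, 11.16 and 11.02 with QC6352, a rise of 0.60 ± 0.11 (adjusted p = 0.000437) that was called in all 17 alternatives. The lines differed in the CHRND response by 0.50 ± 0.15 (adjusted p = 0.0244), called in 16 of 22 alternatives.

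**Figure D2:**
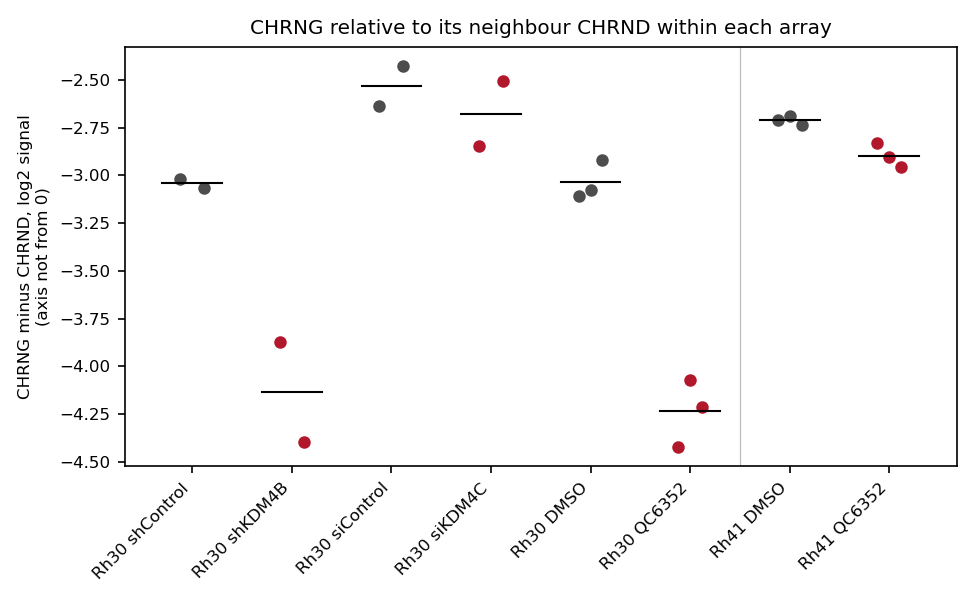
CHRNG minus CHRND (log2, vertical axis) within each array, by group. Points are arrays, bars group means, red a knockdown or QC6352 and grey its control. The 3 Rh30 QC6352 arrays and the 2 KDM4B hairpin arrays lie below their controls, by 1.20 and 1.09 on average, while Rh41 changed by 0.18 and the KDM4C siRNA arrays by 0.14.

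CHRNE, the adult epsilon subunit gene, was near the background median in Rh30 and above it in Rh41, though still below the brightest background probe set of each Rh41 array (7.47 to 7.95). On the 14 Rh30 arrays it lay between 3.67 and 4.66, near the background median. In Rh41 it lay at 6.35, 6.71 and 6.05 with DMSO and at 4.95, 5.06 and 5.49 with QC6352, and the groups did not overlap. The fall was 1.20 ± 0.22 (adjusted p = 0.000649), called in all 16 alternatives. The lines differed by -1.47 ± 0.31 (adjusted p = 0.00231), but the Rh30 values are not a measured level, so only the Rh41 fall is a change in signal. In Rh41 the gamma subunit rose while the epsilon subunit fell. The closest group means were those of ENTREP2 (0.145), AJAP1 (0.170) and ZNF596 (0.183), against a spread of 0.807.

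CHRNA1, the ligand-binding alpha subunit, and CHRNB1, the beta subunit, showed small differences. CHRNA1 lay between 11.65 and 12.52 on all arrays, and its difference was -0.11 ± 0.10 with the hairpin, -0.09 ± 0.08 with QC6352 in Rh30 and 0.06 ± 0.08 in Rh41. CHRNB1 lay at 9.87 and 9.76 with the control hairpin and at 9.46 and 9.51 with the KDM4B hairpin, a fall of 0.33 ± 0.10 (adjusted p = 0.0463). That call was kept in 5 of 15 alternatives, and the adjusted p was 0.101 with a replicate block. With QC6352 in Rh30 CHRNB1 differed by 0.18 ± 0.08 (adjusted p = 0.113; -0.11 by sample name), and in Rh41 by 0.05 ± 0.08.

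Of the agrin pathway genes, LRP4, the agrin receptor, rose in both lines and with the hairpin. In Rh30 it lay at 7.20, 7.40 and 7.42 with DMSO and at 8.10, 8.34 and 8.50 with QC6352. In Rh41 it lay at 7.00, 6.63 and 7.01 with DMSO and at 7.49, 7.60 and 7.68 with QC6352. The treated arrays exceeded the controls in each line. The rise was 0.97 ± 0.12 in Rh30 (adjusted p = 2.51e-06) and 0.71 ± 0.12 in Rh41 (adjusted p = 0.000265), and the lines differed by -0.26 ± 0.17 (95% interval -0.61 to 0.10, adjusted p = 0.333). With the KDM4B hairpin it lay at 7.70 and 7.88 against 7.28 and 7.23, a rise of 0.53 ± 0.15 (adjusted p = 0.0218), a call lost when any 1 of the 4 arrays was left out. On these 4 arrays and on the DMSO arrays of both lines, LRP4 lay below the brightest background probe set of its array. By sample name the Rh30 difference was 0.13 ± 0.16 (adjusted p = 0.684), and the difference between lines changed sign, to 0.59 ± 0.22 (adjusted p = 0.148). The genes with the nearest group means were SFXN5 (0.0991), SLC41A1 (0.121) and MTF1 (0.121), against a spread of 0.435.

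AGRN, which encodes agrin, rose with QC6352 in Rh30, where DMSO arrays lay at 8.24, 8.27 and 8.03 and QC6352 arrays at 8.77, 8.60 and 8.62. The rise was 0.48 ± 0.10 (adjusted p = 0.00101), called in 14 of 16 alternatives but not by sample name (0.35 ± 0.17, adjusted p = 0.275). In Rh41 the difference was 0.25 ± 0.10 (adjusted p = 0.101), and the lines differed by -0.23 ± 0.15 (adjusted p = 0.327). With the hairpin it was 0.03 ± 0.13. The nearest group means were those of SOCS7 (0.0663), IRGM (0.0681) and TMEM253 (0.0731), against a spread of 0.284.

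MUSK, the receptor tyrosine kinase of the complex, responded in Rh41. It lay at 7.43, 7.46 and 7.43 with DMSO and at 8.13, 8.05 and 8.24 with QC6352. In Rh30 it lay at 8.07, 8.06 and 8.08 with DMSO and at 8.07, 8.05 and 7.96 with QC6352. The rise in Rh41 was 0.70 ± 0.08 (adjusted p = 4.46e-06), the Rh30 difference -0.04 ± 0.08 (adjusted p = 0.740; -0.16 by sample name), and the lines differed by 0.74 ± 0.11 (adjusted p = 0.000116). All 17 alternatives for Rh41 and all 22 for the difference between lines called it. The Rh41 DMSO arrays had the lowest MUSK of any group, and with QC6352 the deposited signal lay within the range of the Rh30 arrays. After subtracting each array's median it lay at 0.81 to 0.99, below all Rh30 arrays, of which the lowest was at 1.00. The nearest group means to those of MUSK were S100A10 (0.119), MYO6 (0.123) and ZBTB38 (0.130), against a spread of 0.269. DOK7 and RAPSN did not pass the test in any treatment: DOK7 differed by -0.03 ± 0.12 in Rh30 and 0.04 ± 0.12 in Rh41, and RAPSN by -0.24 ± 0.14 in Rh30 and -0.21 ± 0.14 in Rh41. By sample name their Rh30 differences were 0.34 for DOK7 and -0.38 for RAPSN, neither called.

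**Figure D3:**
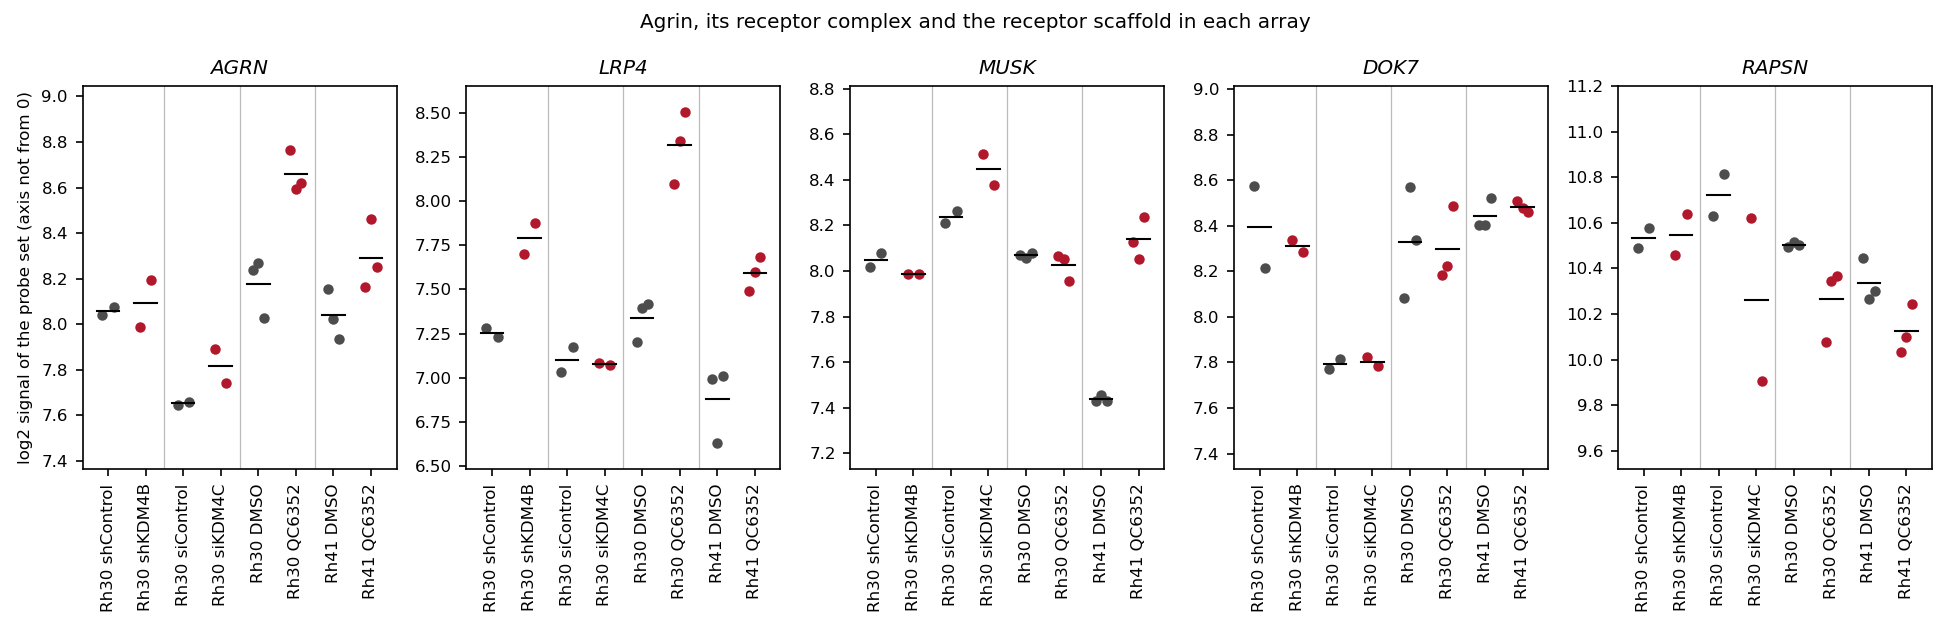
Deposited log2 signal (vertical axis) of AGRN, LRP4, MUSK, DOK7 and RAPSN in every array, by group along the horizontal axis. Points are arrays, bars group means, red marks a knockdown or QC6352 and grey its control. LRP4 is highest in Rh30 QC6352 at 8.10 to 8.50, and MUSK is lowest in Rh41 DMSO at 7.43 to 7.46.

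Counted over the 10 genes, 3 changed with the KDM4B hairpin, where 11.6% of all genes were called. Of these 1 rose, where 5.26% of all genes rose, and 2 fell, where 6.31% fell. The count was 1, CHRNG, when any 1 hairpin array was left out. With QC6352 in Rh30 3 changed, where 36.3% of all genes were called, so the members' share is near the background there. Of these 2 rose, where 19.9% of all genes rose, and 1 fell, where 16.5% fell; by sample name the count was 0, with 89 genes called in all. In Rh41 5 changed, where 19.7% of all genes were called: 4 rose, where 10.9% of all genes rose, and 1 fell, where 8.8% fell. The difference between the lines was called for 4 of 10, where 20% of all genes were called. It was higher in Rh41 for 3, where 10.5% of all genes were, and lower for 1, where 9.45% were. Arrays of treated and control groups did not overlap for 6 members with the hairpin (51.7% of all genes), 5 with the KDM4C siRNA (38.5%), 6 with QC6352 in Rh30 (44.5%) and 8 in Rh41 (41.1%). The median size of the members' differences was 0.33 in Rh41 against 0.16 over all genes, 0.21 against 0.23 in Rh30 and 0.09 against 0.17 with the hairpin.

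**Figure D4:**
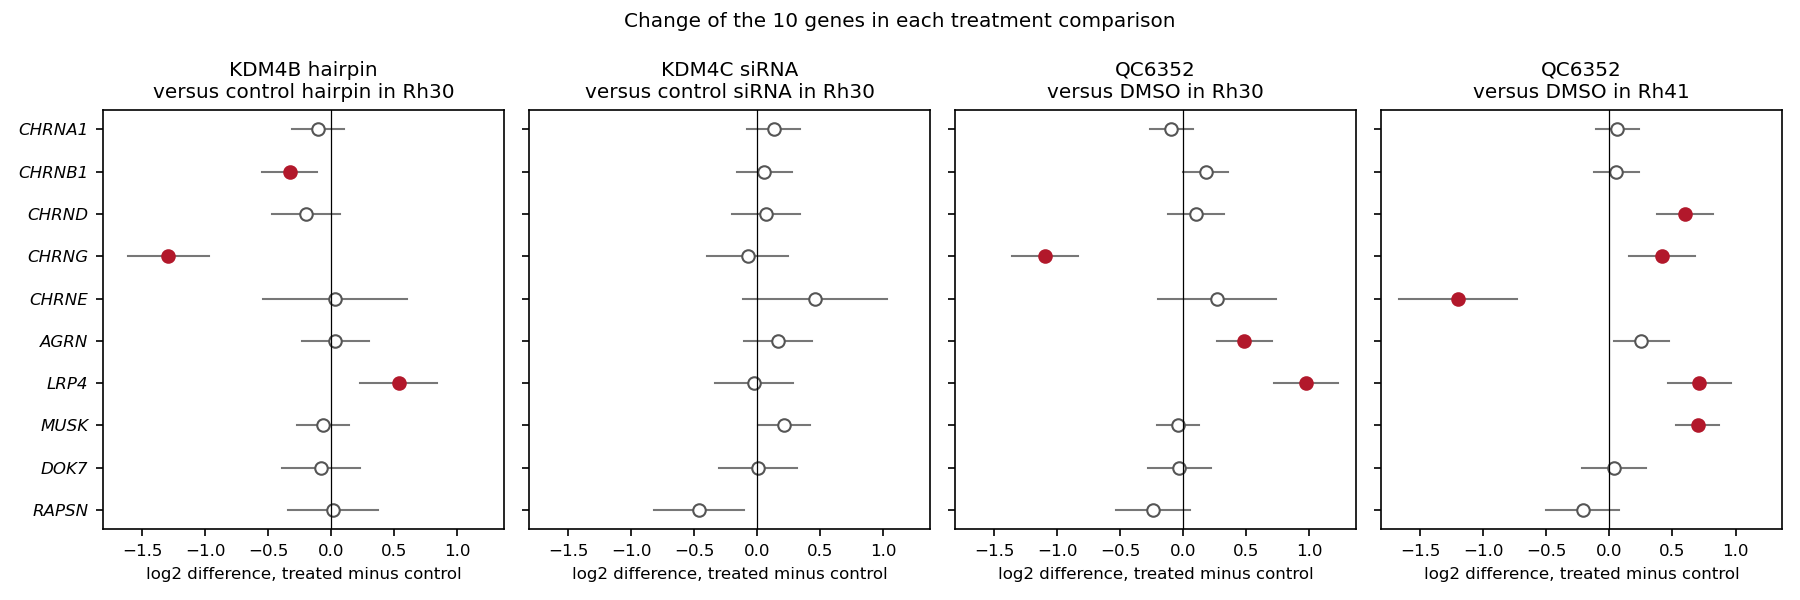
Log2 difference (horizontal axis) of each member in the 4 treatments, with 95% intervals as lines. Filled points pass the adjusted p threshold of 0.05; CHRNG falls with the KDM4B hairpin and with QC6352 in Rh30 and rises in Rh41.

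**Figure D5:**
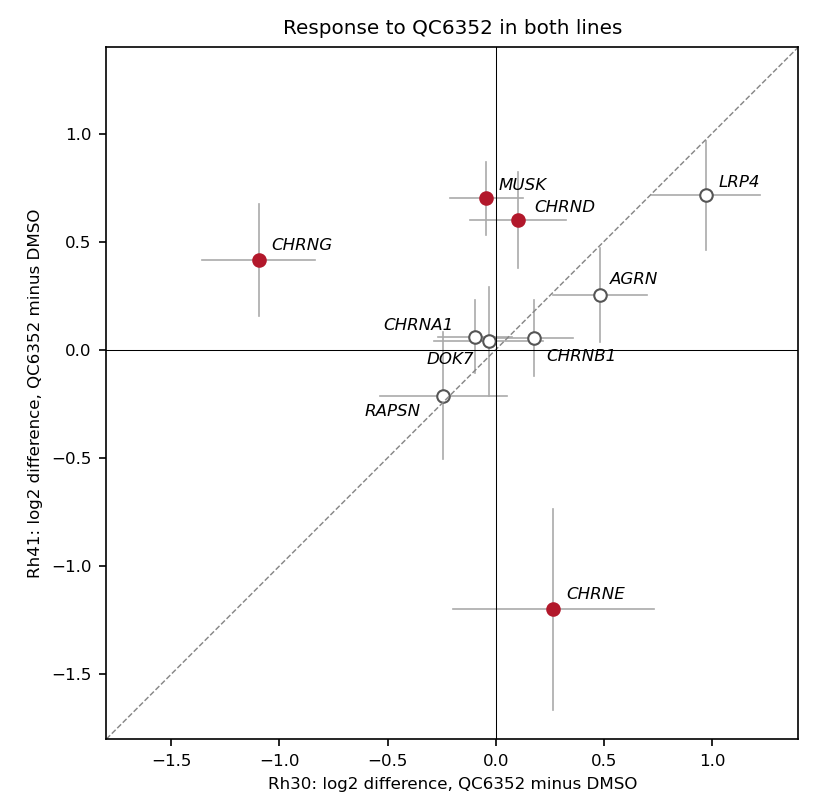
Log2 response to QC6352 in Rh41 (vertical axis) against that in Rh30 (horizontal axis) for the 10 members. Thin lines are 95% intervals, the dashed line marks equal responses, and filled points, CHRNG, CHRND, CHRNE and MUSK, differ between the lines past the threshold.

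With the KDM4C siRNA, limma called 0 of 10 members, where 0.458% of all genes were called (0.266% higher and 0.192% lower), and 2 members, MUSK and RAPSN, had an unadjusted p below 0.05. MUSK lay at 8.52 and 8.38 against 8.21 and 8.26, a difference of 0.21 ± 0.10 (adjusted p = 0.354). RAPSN lay at 10.62 and 9.91 against 10.63 and 10.82, -0.46 ± 0.17 (adjusted p = 0.224), and without siKDM4C replicate 1 it was -0.82 (adjusted p = 0.00362). By sample name limma also called 0 members: the differences were -0.07 for MUSK, 0.07 for RAPSN and 0.66 for LRP4 (adjusted p = 0.260), against -0.03 for LRP4 by title.

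The untreated lines were compared through their DMSO arrays, where the median of all genes lay 0.19 higher in Rh41. Of the 10 members 5 differed, where 57.6% of all genes were called. In Rh41 2 were higher, where 40.7% of all genes were, and 3 lower, where 16.8% were. The arrays of the lines did not overlap for 6 members, against 65.2% of all genes. CHRNE was higher by 2.48 ± 0.22 (adjusted p = 1.68e-08), with Rh30 at background. Set against a signal 1 log2 unit above the background median, the Rh41 mean was 2.66-fold higher. That value is not a lower bound, since the Rh41 CHRNE signals lay below the brightest background probe set of their arrays. CHRNA1 was higher by 0.63 ± 0.08 (adjusted p = 1.97e-06), or 0.44 relative to the median of all genes. MUSK was lower by 0.63 ± 0.08 (adjusted p = 1.86e-06), LRP4 by 0.46 ± 0.12 (adjusted p = 0.00274) and CHRND by 0.28 ± 0.11 (adjusted p = 0.0303). The CHRND call was lost when any 1 Rh30 DMSO array, or Rh41 DMSO replicate 1 or 3, was left out. By sample name LRP4 was -0.22 (adjusted p = 0.232) and CHRND -0.21 (adjusted p = 0.148), both no longer called, while DOK7 was called at 0.64 (adjusted p = 0.00188). CHRNE, CHRNA1 and MUSK stayed called, at 2.51, 0.45 and -0.89. With arrays centred on their medians 8 were called, where 57% of all genes were, adding CHRNB1, AGRN and RAPSN as lower in Rh41.

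A list of 18 measured genes held E-box factors, their inhibitors and genes known from the response of muscle to denervation. In Rh30 with QC6352, 8 fell and 2 rose, where 16.5% of all genes fell and 19.9% rose. MYOG lay at 11.72, 11.76 and 11.82 with DMSO and at 9.06, 9.34 and 9.03 with QC6352, a fall of 2.63 ± 0.10. MYOD1 fell by 1.37 ± 0.12, and ID2, an inhibitor of the myogenic factors, rose by 2.60 ± 0.13. In Rh41, 4 rose and 1 fell, where 10.9% of all genes rose and 8.8% fell. ID2 rose by 0.93 ± 0.13, HDAC4, which takes part in the response of muscle to denervation, fell by 0.48 ± 0.09, and MYOG differed by 0.28 ± 0.10 (adjusted p = 0.0530). By title, the response of MYOG differed between the lines by 2.91 ± 0.14. With the KDM4B hairpin 2 rose and 2 fell, where 5.26% of all genes rose and 6.31% fell. MYF5 rose by 1.15 ± 0.18 and MYOD1 fell by 0.71 ± 0.15, while MYOG differed by -0.29 ± 0.12 (adjusted p = 0.146). By sample name the Rh30 MYOG and MYOD1 differences were 0.20 and 0.28, and that MYOG value lay near its Rh41 difference of 0.28. That grouping sets arrays titled siKDM4C and DMSO against arrays titled siRNA control and siKDM4C. Which label is right was not tested. The difference between lines for ID2 also changed sign by sample name.

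Of 15 measured genes of the synaptic cleft and the dystrophin complex, 6 fell and 3 rose with QC6352 in Rh30 and 2 fell and 1 rose in Rh41. Here and in the next lists the shares called over all genes are 36.3% in Rh30 and 19.7% in Rh41. UTRN, utrophin, which anchors the complex at the endplate, fell by 2.31 ± 0.12 in Rh30, 0.68 ± 0.12 in Rh41 and 0.93 ± 0.14 with the hairpin. SNTB1, a syntrophin, fell by 2.11 ± 0.09 in Rh30. DMD, dystrophin, fell by 0.46 ± 0.09 in Rh41. Of 16 measured genes downstream of agrin and neuregulin, 3 rose and 4 fell in Rh30 and 2 rose and 3 fell in Rh41. ABL2, a kinase of the MUSK pathway, rose in all treatments by title: by 1.35 ± 0.09 in Rh30, 1.20 ± 0.09 in Rh41, 0.96 ± 0.11 with the hairpin and 0.53 ± 0.11 with the KDM4C siRNA (limma adjusted p = 0.0378). The siRNA arrays have conflicting labels, and their KDM4C difference did not pass the test. PDZRN3, a ubiquitin ligase of MUSK, fell by 1.54 ± 0.19 in Rh30 and CDK5 fell by 0.80 ± 0.13 in Rh41. Of 9 measured neuronal-type subunits 3 rose in Rh30, CHRNA7 by 0.67 ± 0.14 among them, and CHRNA3 rose by 0.69 ± 0.17 in Rh41. Of 8 receptor assembly genes 3 rose and 1 fell in Rh30 and 0 were called in Rh41. Of 5 glycosylation genes known from congenital myasthenia, 3 rose (GFPT1, DPAGT1 and ALG2) and 1 fell in Rh30, and 1 rose and 1 fell in Rh41. DPAGT1 rose by 0.59 ± 0.08 in Rh30 and GFPT1 by 0.35 ± 0.10 in Rh41. ALG14, an enzyme of protein N-glycosylation, fell by 1.34 ± 0.14 in Rh30, 0.67 ± 0.14 in Rh41 and 0.55 ± 0.17 with the hairpin. By sample name the Rh30 difference took the other sign for ABL2 (-0.22), UTRN (0.11), PDZRN3 (0.37), DPAGT1 (-0.083) and ALG14 (0.035).

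Summed signals of marker lists also differed between the arrays of these comparisons. The sum of the 7 muscle lineage markers lay at 14.24 to 14.30 with DMSO and 13.40 to 13.46 with QC6352 in Rh30, at 14.19 to 14.20 and 13.91 to 13.93 with the control and KDM4B hairpins, and at 13.80 to 13.87 and 14.01 to 14.09 in Rh41. Such a sum follows its brightest genes. Of the 7, 5 fell in Rh30, 3 fell and 1, MYF5, rose with the hairpin, and 1 rose and 1 fell in Rh41. Over all genes 36.3%, 11.6% and 19.7% were called. Their median difference in Rh41 was -0.20, although the sum rose. The sum of the 6 epithelium markers lay at 9.20 to 9.42 and 10.32 to 10.42 in Rh30, 9.24 to 9.28 and 9.95 to 9.99 with the hairpins, and 9.50 to 9.66 and 9.67 to 9.86 in Rh41. Within that list CLDN4 rose by 1.91 ± 0.13 in Rh30. With the hairpin CLDN4 rose by 1.4999 ± 0.165 (2.83-fold) and was the 1 of 6 called. In Rh30 KRT8 was the other of 2 called, and in Rh41 KRT18 the 1 called, while EPCAM and CDH1 were not over background on any of these arrays. The sum of the 6 fibroblast markers lay at 9.67 to 9.81 and 10.43 to 10.58 in Rh30, where 2, COL1A1 and THY1, were called, and at 9.68 to 9.95 and 10.19 to 10.28 with the hairpins, where limma called 0 and 1, THY1, had an unadjusted p below 0.05. LUM was over background in none of these groups. The sum of the 6 motor neuron markers lay at 8.57 to 8.77 and 8.93 to 9.09 in Rh30, where MNX1 rose and ISL1 fell. With the hairpins it lay at 8.705 to 8.727 and 8.804 to 8.807, and limma called 0 of the 6. The sum of the 6 endothelium markers lay at 8.57 to 8.74 and 8.40 to 8.43 in Rh30, where PECAM1 fell. In Rh41 the fibroblast sums overlapped, at 9.23 to 9.30 and 9.20 to 9.30, and 1 marker, FAP, fell. The part of these markers in the results was not tested.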

How the data were processed

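Total RNA (125 ng input) was hybridised to 20 Affymetrix Clariom S arrays, per the labels. The deposited values are log2 signals per probe set. The submitters' processing notes name GCOS; settings and normalization: not given in the sources used here. Values were used as deposited. Of 24351 probe sets, 17709 carry 1 gene symbol and 6642 none; the highest-mean probe set stood for each gene (22 left out), giving 17687 genes. Groups came from sample titles. One siKDM4C array has a title that reads shRNA and a source name that reads siKDM4C. limma 3.58.1 (R 4.3.3) fitted 8 group means over 20 arrays with 12 residual degrees of freedom and empirical Bayes; p-values were Benjamini-Hochberg adjusted over all genes, threshold 0.05, and the fit was tested on simulated data. Precision is limited by having 2 or 3 arrays in a group.

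Wider genes were named as up to 2 per list and comparison with the largest differences past the threshold and arrays that did not overlap, with MYOG and MYOD1 always; genes of like pattern were the 3 nearest, for members whose group means span over 1 log2 unit. The members and lists were chosen with earlier results of these data known. The margin over background was chosen after values were seen. Alternatives changed the normalization, filter, weights, arrays fitted, block, fold threshold and grouping.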

Additional observations from a re-analysis of the deposited data

Results flagged for a closer look

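The response to QC6352 differed between Rh41 and Rh30, by the interaction term of the fit, for 4 members. The differences, Rh41 minus Rh30 on the log2 scale, were 1.51 for CHRNG, 0.50 for CHRND, 0.74 for MUSK and -1.47 for CHRNE, whose Rh30 signal was at background. Groups of 2 or 3 arrays were too small for a test of single outlying arrays.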

How the results depend on the processing

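By sample name, the Rh30 QC6352 comparison called 0 members, and several of its differences changed sign: UNC50 0.22, PDIA3 -0.15, PDZRN3 0.37, ABL2 -0.22, UTRN 0.11, ALG14 0.035, DPAGT1 -0.083, MYOG 0.20 and MYOD1 0.28. Among the wider genes, the differences between lines that changed sign were PDIA3 0.13, PDZRN3 -0.83, UTRN -0.80, ALG14 -0.71, ID2 0.75 and MYOD1 -0.48. Between DMSO arrays MYOD1 changed sign, to 0.016. This grouping assigns other arrays to the groups. Its siRNA control would hold the arrays titled Rh30 DMSO replicate 3 and QC6352 replicate 1, with MYOG at 11.82 and 9.06. Its Rh30 QC6352 group would hold those titled siKDM4C replicate 2 and DMSO replicates 1 and 2, with array medians of 6.72, 6.97 and 6.99. By title, MYOG lay at 9.03 to 9.34 on the Rh30 QC6352 arrays. Which label is right was not tested. The hairpin count of 3 members became 1 by sample name, with the compared arrays alone and with a fold threshold of 1.5. It was also 1 with any 1 array left out. By sample name the hairpin groups held the same arrays, and the members' differences were unchanged. The standard error, from a spread shared by all groups, went from 0.104 to 0.134 for CHRNB1 and from 0.146 to 0.191 for LRP4. The cause of the other changes in this count was not tested. The siRNA count was 0 to 1 with 1 array left out, the call coming without siKDM4C replicate 1. Between DMSO arrays the count was 8 (2 higher, 6 lower) with quantile normalization or median centring, which remove the shift of all genes, and 3 with the fold threshold; CHRNB1 became -0.29 and -0.25. Leaving out the 10 arrays of conflicting labels, chosen after seeing the data, left counts of 3 with the hairpin and 5 in Rh41.

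With the replicate block the members called were 2 with the hairpin, 0 with the siRNA, 3 in Rh30, 5 in Rh41, 4 between lines and 5 between DMSO arrays; CHRNB1 with the hairpin lost its call. Genes called with the siRNA fell from 81 to 19. Same-numbered arrays were not shown to be pairs: deviations correlated at 0.0858 (hairpin), -0.215 (siRNA), 0.0615 to 0.26 (Rh30) and -0.19 to -0.0593 (Rh41), and 3 of 6 Rh30 and 0 of 6 Rh41 arrays were closest to their own number. A crossed pairing of the siRNA arrays, chosen after seeing the data, called 0 members and 46 genes. Members past the threshold in neither analysis changed sign in 21 cases with an array left out and in 23 others. Signals near background limit CHRNE in Rh30.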
